A study of Mus musculus with 9 samples.

Results

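The genes described here are 10 known markers of neuron groups in the mouse amygdala: Rspo2, Cyp26b1, Etv1, Lmo3 and Otof, used as markers of principal neurons of the basolateral side, Prkcd, Nts, Tac2 and Wfs1, used as markers of the central nucleus, and Tshz1, a marker of intercalated cells. They were chosen by name, and their probes were found through the RefSeq accession that the scanner files give for each probe. Of the 10 genes, 9 had a probe, with 11 probes in all, among 16358 genes that could be named on the array, and Tshz1 had no matched probe, so it is not analysed here. The samples were amygdala, hypothalamus and prefrontal cortex of male wild-type C57BL/6J mice aged 8 to 9 weeks. Mice fed ad libitum (AD) were the controls, mice on repeated fasting and refeeding (RFR) went without food and then ate freely in turn, and mice under caloric restriction (CR) were given a fixed part of what the RFR mice ate. All were killed on day 8 under ether and perfused before dissection. For every region and diet, 1 single-colour Agilent array was hybridised with RNA pooled from 4 mice, which makes 9 arrays and no replicates. The labels place amygdala and hypothalamus in a 1 mm coronal slice from 1.5 to 2.5 mm behind bregma, and give 2.5 to 3.5 mm for the prefrontal cortex, also written as posterior. A region piece cut from such a slice holds all the cell types of the area, and in such bulk RNA fewer cells of a type and less RNA per cell cannot be told apart.

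The amygdala is a group of nuclei that links sensory input to emotional and feeding responses. Its basolateral complex is built much like cortex, from glutamatergic principal neurons. Its central nucleus is built much like striatum, from GABAergic neurons that release neuropeptides, and the intercalated cells are GABAergic clusters between both. A marker of one of these groups may also be expressed elsewhere in the brain, and in particular the neuropeptides neurotensin and neurokinin B are also made by hypothalamic neurons.

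Every level below is the log2 processed signal of a probe relative to the 75th percentile of its array, so 0 is the level of that percentile and 1 unit is 2-fold. Levels of different probes are not comparable and are not ranked against each other. Between 25958 and 30199 of 43379 noncontrol spots were well above background on an array, none of the members' spots was saturated or marked as an outlier, and each member probe had 1 spot. The regions' own markers followed the labels as far as hypothalamus and cortex in general. The mean level of 12 hypothalamic neuron genes was 2.43 to 2.54 on the hypothalamus arrays, against -2.6 to -1.99 in amygdala and -4.77 to -4.3 in prefrontal cortex. The mean of 10 cortical excitatory neuron genes was -0.413 to -0.14 in prefrontal cortex, -1.15 to -0.926 in amygdala and -2.36 to -2.26 in hypothalamus. Of these 10 genes, 6 were lower and 1 was higher in amygdala than in prefrontal cortex. This list does not tell the prefrontal part from other cortex. Markers of other tissue also differed between arrays, and where that RNA came from was not tested. The pituitary hormone genes Prl and Gh were well above background on the 3 RFR arrays and on no other array, and 11 striatal projection neuron genes averaged 0.313 to 0.761 in amygdala, above the other regions. Of those 11 genes, Penk also stands in the central nucleus and intercalated cell lists, and Drd1, Tac1 and Ppp1r1b each stand in an amygdala list.

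Across regions, the markers were far from uniform. Cyp26b1, Lmo3, Otof and Wfs1 were higher in amygdala than in both other regions. Rspo2 and Etv1 were higher in amygdala and in prefrontal cortex than in hypothalamus. Nts, Tac2 and Prkcd were lower in prefrontal cortex than in both other regions. Some of these calls were lost under alternative settings, as given gene by gene below. The mean level over the 9 genes was 1.63 to 1.65 on the amygdala arrays, 0.0149 to 0.227 on the hypothalamus arrays and -0.237 to -0.0949 on the prefrontal cortex arrays. The prefrontal cortex mean includes Nts, at -5.66 to -4.92 there, so these means do not order prefrontal cortex against hypothalamus. Regions were compared with limma over all genes, with diet as a second term, 3 arrays per region and Benjamini-Hochberg adjusted p-values at a threshold of 0.05. Against hypothalamus, 7 of the 9 genes passed, 6 of them higher in amygdala, where 29.4% of all 12628 genes fitted passed, 13.5% higher in amygdala and 15.9% higher in hypothalamus. Against prefrontal cortex, 8 of 9 passed, 7 of them higher in amygdala, where 22.3% of all genes passed, 12.2% higher in amygdala and 10.2% higher in prefrontal cortex. The second count was 5 without a filter on dim genes, 5 with the slide as a fixed term, 4 without the RFR pool, and 5 without any 1 of the amygdala RFR array and the 3 prefrontal cortex arrays. The first count was 4 without the RFR pool. The median difference of the 9 genes was 1 log2 units against hypothalamus and 1.06 against prefrontal cortex, where the medians of all genes were -0.0574 and 0.00366.

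**Figure D1:**
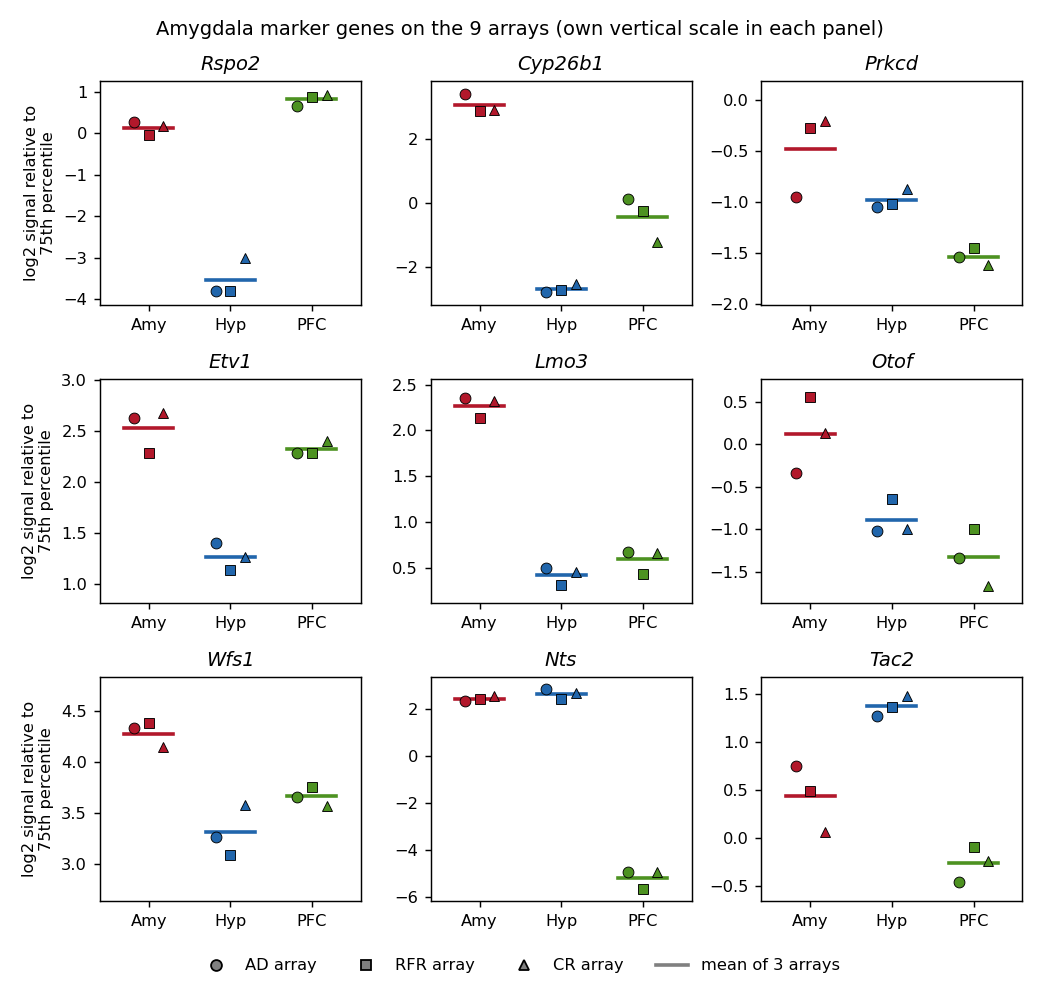
Level of each marker gene (log2 processed signal relative to the array's 75th percentile; vertical scale differs between panels) in amygdala (Amy), hypothalamus (Hyp) and prefrontal cortex (PFC); each point is 1 array of pooled RNA, shaped by diet, and the bar is the mean of 3 arrays. Nts lay between 2.32 and 2.82 on the amygdala and hypothalamus arrays and between -5.66 and -4.92 on the prefrontal cortex arrays, while the 3 Lmo3 amygdala arrays lay above all 6 others.

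Cyp26b1 encodes a cytochrome P450 that clears retinoic acid, the vitamin A derivative that controls gene expression through nuclear receptors. Its probe stood at 3.40, 2.87 and 2.89 on the AD, RFR and CR amygdala arrays. In prefrontal cortex the same 3 diets gave 0.13, -0.25 and -1.23, and in hypothalamus -2.80, -2.73 and -2.55. No array of a region overlapped with an array of another, and the order was amygdala, prefrontal cortex, hypothalamus. The difference was 5.75 ± 0.29 log2 units (SE, 3 arrays per region) against hypothalamus, a 53.6-fold higher signal (limma adjusted p = 3.9e-05), and 3.5 ± 0.29 against prefrontal cortex, 11.3-fold (adjusted p = 0.00031). Within the AD slide, which holds all 3 AD arrays, the differences were 6.2 and 3.27. Both calls were kept under all 20 alternative settings, with 5.09 for the first under normexp background correction. The mean level of 10 meningeal fibroblast genes was 1.71 to 1.89 in amygdala and 0.777 to 1.6 in prefrontal cortex. In hypothalamus that mean was -0.162 to 0.795. The part of meningeal fibroblasts in the Cyp26b1 level was not tested. Because this gene and Nts had the steepest regional gradients, the 250 bases before their RefSeq transcript starts are shown, with searched motifs in capitals, for Cyp26b1 from chr6:84593811-84594060 (GRCm38.p6, minus strand) and for Nts from chr10:102490419-102490668 (GRCm38.p6, minus strand), both written 5′ to 3′ along the gene.
Cyp26b1: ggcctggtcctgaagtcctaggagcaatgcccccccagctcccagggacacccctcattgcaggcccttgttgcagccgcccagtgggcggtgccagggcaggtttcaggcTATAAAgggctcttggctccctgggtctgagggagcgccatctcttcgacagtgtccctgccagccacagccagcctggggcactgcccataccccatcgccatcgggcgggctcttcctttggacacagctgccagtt
Nts: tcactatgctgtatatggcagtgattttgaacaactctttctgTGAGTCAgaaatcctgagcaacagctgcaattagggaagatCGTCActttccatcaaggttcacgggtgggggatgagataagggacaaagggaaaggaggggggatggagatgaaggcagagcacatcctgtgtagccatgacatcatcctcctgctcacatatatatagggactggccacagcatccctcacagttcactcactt
Motifs were searched as letters on both strands: the TATA box TATAAA, the AP-1 element TGANTCA, the cAMP response element core TGACG and the nuclear receptor core AGGTCA. In Cyp26b1 the capitals mark 1 TATAAA whose first base is 139 bases before the transcript start used, and 12.4% of 32851 mouse promoter windows of the same length held one. The annotated 5′ end of Cyp26b1, at 84593908, lies inside this window, so the last bases shown are within the gene. The TATAAA is therefore nearer to that 5′ end than 139 bases. In Nts the capitals mark an AP-1 match, TGAGTCA, whose first base is 207 bases before the start, and CGTCA, the core TGACG on the opposite strand, 166 bases before it. Those motifs were held by 6.75% and 17.8% of the windows, and the matches did not overlap. AGGTCA, held by 14.0% of windows, was in neither. A match describes letters in the window and nothing more, and the arrays do not measure binding.

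Lmo3, a LIM-only protein that works as a cofactor in transcription factor complexes, had the most even profile of the markers that were highest in amygdala. It stood at 2.36, 2.14 and 2.32 in amygdala for AD, RFR and CR, at 0.67, 0.43 and 0.66 in prefrontal cortex and at 0.49, 0.31 and 0.45 in hypothalamus. All 3 amygdala arrays lay above the 6 others, while the arrays of the other two regions overlapped. Amygdala was higher by 1.85 ± 0.09 (SE) than hypothalamus, 3.62-fold (limma adjusted p = 3.3e-05), and by 1.68 ± 0.09 than prefrontal cortex, 3.21-fold (adjusted p = 5.7e-05). The 3 diets gave 1.86, 1.83 and 1.87 for the first difference and 1.68, 1.71 and 1.66 for the second. Hypothalamus and prefrontal cortex differed by -0.17 (95% interval -0.38 to 0.04, adjusted p = 0.15).

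Rspo2 encodes a secreted R-spondin, which strengthens Wnt signalling through Lgr receptors. In amygdala its levels were 0.26, -0.04 and 0.18 for AD, RFR and CR, and in prefrontal cortex 0.66, 0.88 and 0.92. In hypothalamus they were -3.81, -3.79 and -3.0. Rspo2 was thus lower in hypothalamus than on every other array, by 3.67 ± 0.19 (SE) against amygdala, 12.7-fold (limma adjusted p = 4.3e-05), and by 2.8 with normexp background correction. It was also lower in amygdala than in prefrontal cortex, by a log2 difference of -0.69 ± 0.19 (adjusted p = 0.04). That second call was kept in 10 of 20 alternatives, with adjusted p from 0.0064 to 0.33 and a difference of -0.32 with the slide as a term.

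Etv1, an ETS-family transcription factor, was higher in amygdala (2.63, 2.28 and 2.68) and in prefrontal cortex (2.28, 2.28 and 2.40) than in hypothalamus (1.40, 1.14 and 1.27). Amygdala exceeded hypothalamus by 1.26 ± 0.11 (SE), 2.39-fold (limma adjusted p = 0.00035). Amygdala and prefrontal cortex arrays overlapped, and their difference was 0.21 (95% interval -0.05 to 0.47, adjusted p = 0.23).

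Otof encodes otoferlin, a ferlin that senses calcium in vesicle release and is best known from inner-ear hair cells. Its brighter probe (A_52_P49518) stood at -0.33, 0.56 and 0.13 in amygdala, at -1.02, -0.64 and -1.0 in hypothalamus and at -1.34, -0.99 and -1.66 in prefrontal cortex. The amygdala arrays lay above all others, by 1.0 ± 0.16 (SE) over hypothalamus, 2.01-fold (limma adjusted p = 0.0039, and 0.074 without the RFR pool), and by 1.45 ± 0.16 over prefrontal cortex, 2.72-fold (adjusted p = 0.001). A dimmer second probe (A_51_P371490) gave smaller differences in the same directions, 0.58 and 1.23. On it the regions overlapped, because its hypothalamus RFR array (-2.58) lay above the amygdala AD array (-3.06).

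Nts encodes the precursor of neurotensin, a peptide of central nucleus and hypothalamic neurons that lowers food intake when given to rodents. It stood at 2.32, 2.42 and 2.52 in amygdala and at 2.82, 2.42 and 2.67 in hypothalamus. In prefrontal cortex it stood at -4.92, -5.66 and -4.94, and the RFR array there was not well above background. Folds against this region are therefore estimates that rest on a weak signal. On the scale of the processed signal, Nts was 193-fold higher in amygdala than in prefrontal cortex (7.59 ± 0.17 log2 units, 95% interval 7.2 to 7.98, limma adjusted p = 3.4e-06). In hypothalamus it was 225-fold higher than in prefrontal cortex (7.81, 95% interval 7.42 to 8.21, limma adjusted p = 9.2e-07). The amygdala and hypothalamus arrays overlapped and differed by -0.22 (95% interval -0.61 to 0.17, adjusted p = 0.36). With normexp background correction these differences from prefrontal cortex were smaller, 5.69 for amygdala and 5.84 for hypothalamus, so the size of the fold depends on the background correction.

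Tac2 encodes the precursor of neurokinin B, a tachykinin peptide. It was highest in hypothalamus, at 1.27, 1.36 and 1.48, lower in amygdala, at 0.75, 0.49 and 0.06, and lowest in prefrontal cortex, at -0.46, -0.09 and -0.24. The regions did not overlap. Amygdala lay below hypothalamus by a log2 difference of -0.93 ± 0.19 (SE, limma adjusted p = 0.011), called in 18 of 20 alternatives. It lay above prefrontal cortex by 0.7 ± 0.19 (adjusted p = 0.041), called in 9 of 20, with adjusted p from 0.013 to 0.2, and the pairs of 1 diet gave 1.22, 0.59 and 0.3.

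Prkcd encodes protein kinase C delta, which marks a large GABAergic population of the lateral central nucleus and is also strong in thalamic relay neurons. Its brighter probe (A_51_P460734) stood at -0.95, -0.28 and -0.21 in amygdala, at -1.05, -1.02 and -0.87 in hypothalamus and at -1.54, -1.45 and -1.62 in prefrontal cortex. The amygdala AD array fell inside the hypothalamic range, and the other amygdala arrays lay above it. The difference from hypothalamus, 0.5 ± 0.17 (SE), missed the threshold (limma adjusted p = 0.064) and passed in 5 of 20 alternatives; it was 0.72 (adjusted p = 0.0059) without the amygdala AD array. Amygdala was higher than prefrontal cortex by 1.06 ± 0.17, 2.08-fold (adjusted p = 0.005, and 0.093 with the slide as a term). The second probe (A_52_P197498) gave 0.42 and 1.05 for these differences. Of a thalamic neuron list that includes Prkcd, the mean level of 8 genes was 0.285 to 0.531 in amygdala, 0.904 to 0.954 in hypothalamus and -0.745 to -0.647 in prefrontal cortex; its part in the Prkcd level was not tested.

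Wfs1 encodes wolframin, a membrane protein of the endoplasmic reticulum that is mutated in Wolfram syndrome. It stood at 4.33, 4.38 and 4.15 in amygdala, at 3.66, 3.76 and 3.57 in prefrontal cortex and at 3.27, 3.09 and 3.58 in hypothalamus. Amygdala was higher by 0.97 ± 0.15 (SE) than hypothalamus, 1.95-fold (limma adjusted p = 0.0041, and 0.059 without the RFR pool), and by 0.62 ± 0.15 than prefrontal cortex, 1.53-fold (adjusted p = 0.029). The second call was kept in 11 of 20 alternatives, and with the slide as a term the difference was 0.87 (adjusted p = 0.056). The amygdala arrays did not overlap with the others. A hippocampal neuron list had a mean level over 7 genes of -1.92 to -1.41 in amygdala. The same mean was -2.06 to -2.01 in hypothalamus and -2.4 to -2.13 in prefrontal cortex. The part of hippocampal neurons in the Wfs1 level was not tested.

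Cyp26b1, Lmo3, Otof and Wfs1 were therefore the 4 of 9 genes higher in amygdala than in both other regions, beside 1.77% of all genes fitted. Between the other two regions, 3 of the 9 were higher in hypothalamus (Nts, Tac2 and Prkcd) and 3 in prefrontal cortex (Rspo2, Cyp26b1 and Etv1), where 48% of all genes passed, 26.7% and 21.3% in these directions. Prkcd differed there by 0.56 log2 units (limma adjusted p = 0.031, from 0.0034 to 0.13 over the alternatives). Only some pairs of a diet share a slide: the 3 AD arrays, the RFR arrays of amygdala and hypothalamus, and the CR arrays of hypothalamus and prefrontal cortex.

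**Figure D2:**
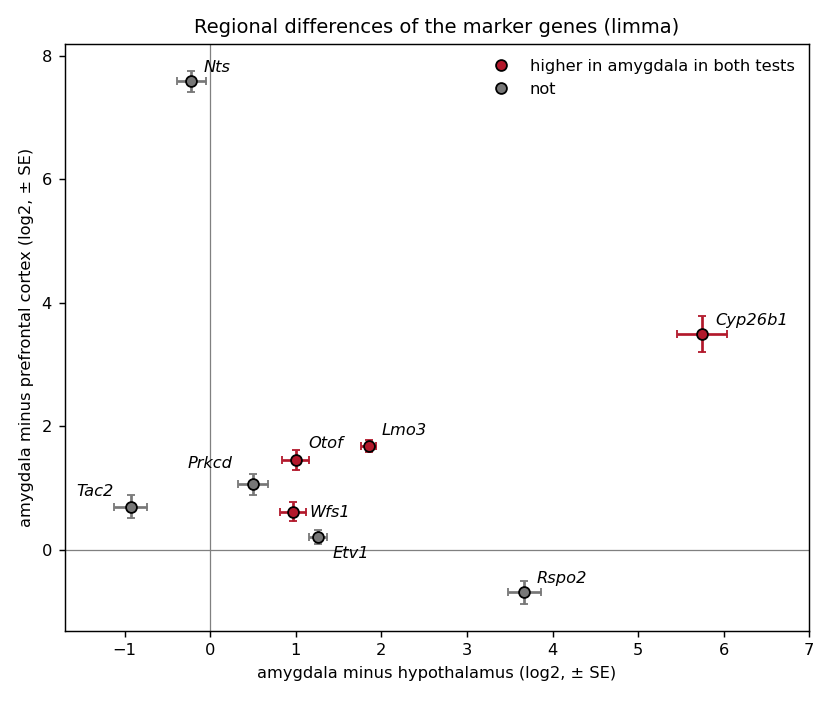
Difference of each marker gene between amygdala and hypothalamus (horizontal, log2) and between amygdala and prefrontal cortex (vertical, log2), from the limma fit, with bars of 1 SE and 3 arrays per region. Cyp26b1 lies far right and high (5.75 and 3.5), Nts lies at the top near 0 on the horizontal axis (7.59 and -0.22), and Rspo2 lies to the right and just under 0 (3.67 and -0.69).

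Lists of genes from the same neuron groups, members included, were compared in the same fit. Rspo2, Etv1, Lmo3, Cyp26b1 and Otof are thus among the basolateral complex genes. Of all genes fitted, 13.5% were higher and 15.9% lower in amygdala than in hypothalamus. Against prefrontal cortex, 12.2% were higher and 10.2% lower in amygdala. Of 16 basolateral complex genes, 14 were higher in amygdala than in hypothalamus and none was lower, with a median difference of 2.18, but against prefrontal cortex 5 were higher and 7 lower, with a median of -0.0613. Cyp26b1, Lmo3, Otof and Nr4a2 were among those 5, and Rspo2 was among the 7. The list shares Tbr1 and Fezf2 with the cortical excitatory list and Dcn with the meningeal fibroblast list. The vesicular glutamate transporter gene Slc17a7 was at least 57.0-fold higher in amygdala than in hypothalamus, where no array showed it well above background, and was 2.32-fold lower in amygdala than in prefrontal cortex (limma adjusted p = 0.007). Neurod6, a transcription factor of glutamatergic forebrain neurons, did likewise, at least 18.6-fold higher and 3.77-fold lower (adjusted p = 0.00014). Nr4a2, an orphan nuclear receptor that also marks the claustrum, was higher in amygdala than in both regions, by 2.16 and by 1.3 log2 units (adjusted p = 0.00079 and 0.0081). Ppp1r1b, which encodes the dopamine-regulated phosphatase inhibitor DARPP-32, was higher than in hypothalamus by 2.19 (adjusted p = 0.0013) and differed from prefrontal cortex by 0.4 (adjusted p = 0.33). Of 15 central nucleus genes, 4 were higher and 6 lower in amygdala than in hypothalamus, while 11 were higher and 2 lower than in prefrontal cortex. The enkephalin precursor gene Penk was higher in amygdala by 0.92 and 1.99 log2 units (adjusted p = 0.00067 and 4.2e-05). Isl1, a LIM homeodomain factor, was 9.99-fold lower in amygdala than in hypothalamus (adjusted p = 4.6e-05) and exceeded prefrontal cortex at least 7.47-fold, where it was not well above background on any array.

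The intercalated cell list, which Tshz1 would head, had 5 fitted genes. All 5 were higher in amygdala than in hypothalamus and 4 were higher than in prefrontal cortex. The dopamine receptor gene Drd1 was higher by 2.71 and 2.27 log2 units (limma adjusted p = 9.1e-05 and 0.00021), and the transcription factor gene Foxp2 by 1.54 and 2.17 (adjusted p = 0.00017 and 5.7e-05). Foxp2 also stands in the medial amygdala list and in the cortical excitatory list. In the latter it was the 1 gene higher in amygdala than in prefrontal cortex. Drd1 and Penk also mark striatal projection neurons, of whose 11 genes 6 and 9 were higher in amygdala, so their part in these values was not tested. Of 9 medial amygdala genes, 8 were higher than in prefrontal cortex and none lower, and 2 were higher and 4 lower than in hypothalamus. Lhx9, a LIM homeodomain factor, was 1.96-fold higher in amygdala than in hypothalamus (adjusted p = 0.012) and exceeded prefrontal cortex at least 14.0-fold. Against hypothalamus, Lhx5 was 7.67-fold lower in amygdala (limma adjusted p = 9.6e-05) and Cyp19a1 differed by 0.32 log2 units (limma adjusted p = 0.23).

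**Figure D3:**
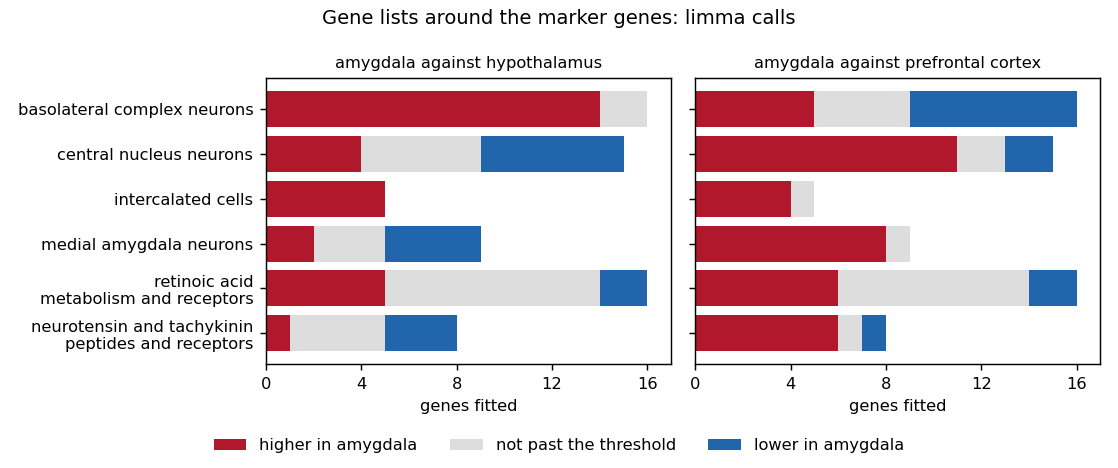
Number of fitted genes of 6 lists that were higher in amygdala (red), lower in amygdala (blue) or not past the threshold (grey) in limma's comparison of amygdala with hypothalamus (left) and with prefrontal cortex (right), 3 arrays per region. The basolateral bar is red for 14 of 16 genes on the left and for 5 on the right, and the central nucleus bar is red for 4 of 15 on the left and for 11 on the right.

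In the biochemical pathways of the markers, counted with the markers included, the genes did not share one regional pattern. The shares of all genes given above apply to these counts as well. Of 16 retinoic acid genes, 5 were higher and 2 lower in amygdala than in hypothalamus, and 6 were higher and 2 lower than in prefrontal cortex. The counts of lower genes are near the shares of all genes, 15.9% and 10.2%. Cyp26a1, another retinoic acid-clearing enzyme of the family, was well above background on the 3 amygdala arrays and on no other, exceeding hypothalamus at least 2.8-fold and prefrontal cortex at least 3.61-fold. The retinoid receptor gene Rxrg was 5.81-fold higher in amygdala than in prefrontal cortex (limma adjusted p = 0.00032), and Aldh1a3, which makes retinoic acid, was 5.33-fold lower (adjusted p = 0.017). Of 8 neurotensin and tachykinin genes, 6 were higher and 1 lower than in prefrontal cortex, and 1 was higher and 3 lower than in hypothalamus. The receptor genes Ntsr1 (1.6 ± 0.13 log2 units, adjusted p = 0.00035) and Tacr3 (at least 10.1-fold) were both higher in amygdala than in prefrontal cortex, as was Tac1, the substance P precursor gene, by 1.58 ± 0.12 (adjusted p = 0.00022). Against hypothalamus, Ntsr1 differed by -0.18 (adjusted p = 0.36) and Tacr3 by -0.52 (adjusted p = 0.056).

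Among 5 R-spondins and receptors, Rspo2 alone was higher in amygdala than in hypothalamus, and Rspo1 was 2.56-fold lower (limma adjusted p = 0.00089). Of 9 protein kinase C genes, 3 were higher than in hypothalamus and none lower, and against prefrontal cortex 2 were higher and 3 lower. Prkcb, the beta isoform gene, was higher than in hypothalamus by 1.87 ± 0.11 (adjusted p = 7.1e-05) and lower than in prefrontal cortex, at -1.18 (adjusted p = 0.0005). Of 9 Tshz, Etv and Lmo genes, 6 were higher than in hypothalamus, and against prefrontal cortex 2 were higher and 3 lower. Tshz2, a relative of the unmeasured Tshz1, was higher in amygdala than in both regions, by 0.45 and 1.76 (adjusted p = 0.015 and 7.5e-05), and Lmo4 was higher by 1.23 and lower at -1.45 (adjusted p = 0.00041 and 0.00025). Both fitted ferlin genes, Otof and Dysf, were higher than in hypothalamus, and Otof alone was higher than in prefrontal cortex. Of 6 genes of wolframin's endoplasmic reticulum partners, 3 were higher than in hypothalamus, and against prefrontal cortex 1 was higher and 2 lower. The inositol trisphosphate receptor gene Itpr1 was 1.99-fold higher and 2.78-fold lower (adjusted p = 0.0027 and 0.00061).

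The genes with the profile most like each marker were ranked by the root mean square difference over the 9 arrays, each profile centred on its own mean, among 11237 genes well above background on every array. The nearest were Ptk2b (0.22 log2 units) and Kcnj4 (0.23) for Rspo2, Adarb2 (0.22) and Cnn1 (0.24) for Lmo3, Cacng8 (0.12) and Strip2 (0.13) for Etv1, and Tcim and Bmp7 (both 0.12) for Wfs1. For Tac2 they were Slc14a1 (0.11) and Gkap1 (0.14), for Prkcd Trp53i11 (0.17) and Sorcs2 (0.18), and for Otof Npsr1 (0.28) and Necab2 (0.29). Nts and Cyp26b1 had no close neighbour: Igsf1 and Clic6 lay at 0.95 and 1.05 from Nts, and Krt9 and Myo5b at 0.79 and 0.81 from Cyp26b1. A gene with small regional differences has a near neighbour more easily, and these distances describe the 9 arrays and nothing else.

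In the median of the 9 genes, differences between diets over the 3 regions were smaller than those between regions. The median absolute region difference was 1, 1.06 and 1.05 log2 units in the 3 region comparisons. Within 1 region some diet differences were of similar size or larger. In amygdala Prkcd differed by 0.73 between CR and AD, against 0.5 between amygdala and hypothalamus. Tac2 differed there by -0.69, against 0.7 between amygdala and prefrontal cortex. Over the 3 regions together, none of the 9 genes passed the threshold in any of the 3 diet comparisons in limma (3 arrays per diet), and none did under any of 21 alternatives. Among all genes, 0% passed for CR against AD and 0.0158% in each of the comparisons of RFR with AD and with CR, although 2087, 777 and 1865 genes had an unadjusted p under 0.05. Of the 9 markers, 0, 2 and 1 did. Because the 3 arrays of a diet share their mice, these p-values come out too small. The median absolute difference of the 9 genes was 0.0509, 0.214 and 0.219 log2 units, against 0.165, 0.105 and 0.152 over all genes.

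Otof had the lowest unadjusted p of the markers in these comparisons, with a level 0.54 ± 0.16 above AD under RFR (SE, 95% interval 0.16 to 0.91, limma unadjusted p = 0.012, adjusted p = 0.67, from 0.21 to 1.0 over the alternatives). It was higher in 3 of 3 regions, by 0.89 in amygdala, 0.38 in hypothalamus and 0.35 in prefrontal cortex. Its second probe gave 0.65, 0.95 and 0.14. CR lay below RFR for Otof by a log2 difference of -0.49 (adjusted p = 0.25), also in 3 of 3 regions. Cyp26b1 differed as much between CR and AD, at -0.54 ± 0.29 (95% interval -1.22 to 0.14, adjusted p = 0.38), with a value below AD in 2 of 3 regions. Lmo3 was lower under RFR than AD in 3 of 3 regions, by log2 differences of -0.21, -0.18 and -0.25, with -0.21 ± 0.09 overall (adjusted p = 0.78). The RFR arrays are also those with Prl and Gh well above background, and the part of that in these values was not tested.

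Within 1 region each diet is 1 array, so differences there have no replicate check and no p-value. In every region the CR array was on another slide than the AD array, and in amygdala and hypothalamus the RFR array was as well, so diet and slide cannot be told apart in those differences; the pairs on 1 slide were RFR and AD in prefrontal cortex and CR and RFR in hypothalamus. At a threshold of 2-fold, with both arrays well above background, only 1 of the 9 genes passed in any region on the probe used for it: Cyp26b1 in prefrontal cortex, 2.57-fold lower under CR than AD. Its level there was 0.13 (AD), -0.25 (RFR) and -1.23 (CR), so the CR array was the lowest of the 3, at -1.36 from AD and -0.98 from RFR. It is also the one prefrontal cortex array on another slide. The share of all genes at least 2-fold different was 1.14% for CR against AD in prefrontal cortex, and 0.381% had a larger difference than Cyp26b1. The difference was -1.17 under normexp, -1.3 under quantile scaling and -1.26 in the authors' deposited table. In amygdala Cyp26b1 was also lower under both diets, at -0.51 and -0.53, and in hypothalamus it differed by 0.25 and 0.07. Beside it, all 10 meningeal fibroblast genes were lower on the prefrontal cortex CR array than on the AD array, with a median difference of -0.609, 1 of 4 claustrum genes was higher (median -0.445), and 7 of 10 cortical excitatory genes were higher (median 0.203). Their part in the Cyp26b1 difference was not tested.

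In amygdala, none of the 9 genes passed 2-fold, where 3.26% of all genes did for CR against AD, 1.47% between RFR and AD and 2.16% between CR and RFR. Prkcd was the gene highest over AD under CR, by 0.73 log2 units (1.66-fold), and by 0.67 under RFR. Both come from the same low AD array, at -0.95 against -0.28 and -0.21. Its second probe gave larger values, 1.14 and 1.07, past 2-fold, again with the AD array lowest. In hypothalamus and prefrontal cortex the Prkcd differences from AD lay between -0.08 and 0.18 on the brighter probe. Beside it, 5 of 8 thalamic genes, Prkcd included, were higher under CR than AD in amygdala (median 0.239) and 3 of 8 under RFR (median -0.169), and their part was not tested. Tac2 was lower in amygdala under CR than AD, at -0.69 (1.62-fold), with RFR between them at -0.26, while in hypothalamus and prefrontal cortex its differences were 0.22 and 0.22. For Otof the amygdala RFR array was 0.89 above AD, and CR 0.46. That RFR array also had 8 of 8 measured choroid plexus genes above AD (median 1.08) and 9 of 10 hypothalamic neuron genes (median 0.462), and their part was not tested. No other array shares the slide of the CR amygdala array.

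In hypothalamus, 1.34%, 0.69% and 0.527% of all genes were at least 2-fold different between CR and AD, RFR and AD, and CR and RFR, and none of the markers was on the probe used for each gene. The dimmer Otof probe did pass, at -1.04 for CR against RFR, and gave 0.95 for RFR against AD, where the brighter probe gave -0.36 and 0.38. Among the probes used, Rspo2 came nearest, 0.81 above AD under CR (1.75-fold) at its low hypothalamic level, but 0.18 with normexp background correction. All 10 meningeal fibroblast genes were higher on that CR array (median 0.868), and their part was not tested. Nts differed from AD by -0.14 under CR and -0.4 under RFR in hypothalamus, and by 0.2 and 0.1 in amygdala. In prefrontal cortex, 0.97% and 0.819% of all genes passed between RFR and AD and between CR and RFR, and no marker did. Over the 3 regions, Etv1 differed between diets by 0.4 or less within a region and Wfs1 by 0.49 or less.

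**Figure D4:**
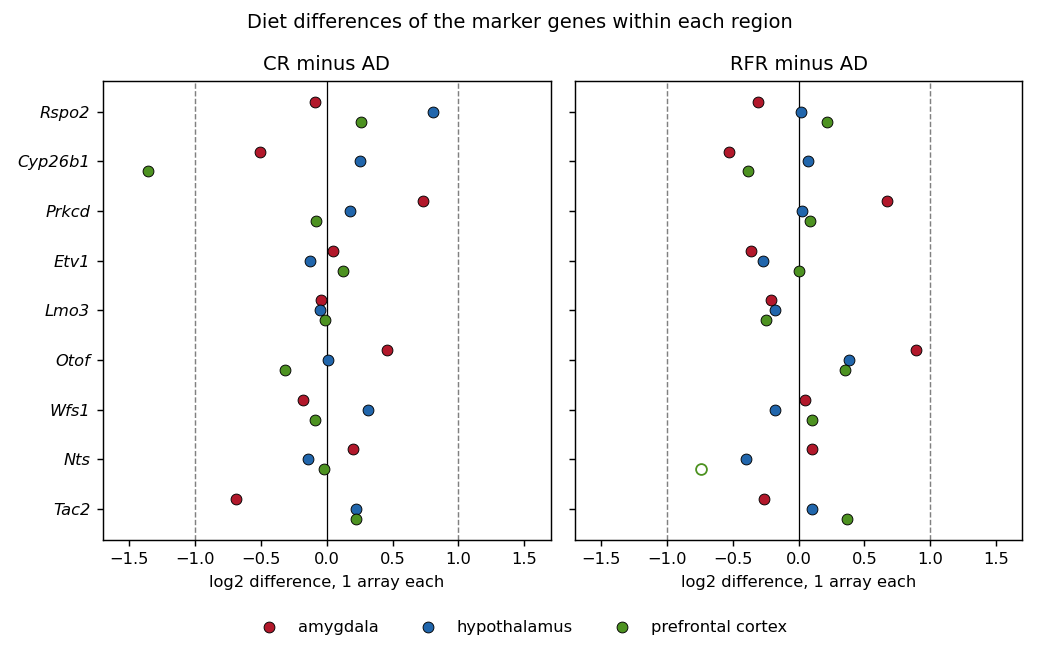
Log2 difference of each marker gene between CR and AD (left) and between RFR and AD (right) within amygdala (red), hypothalamus (blue) and prefrontal cortex (green), each from 1 array per diet; dashed lines mark 2-fold, and the open circle is Nts in prefrontal cortex, where the RFR array was not well above background. The point beyond a dashed line is Cyp26b1 in prefrontal cortex under CR (-1.36), and Prkcd in amygdala lies to the right in both panels (0.73 and 0.67).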

How the data were processed

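Amygdala, hypothalamus and prefrontal cortex of 3 diet pools were measured on 9 arrays. Per the file headers, the scanner files come from Agilent Feature Extraction 9.5.1.1; the deposited processed signal is an intensity, background-subtracted on each array and not scaled between arrays. The deposited quality columns hold other values, flags of 0 or 1. The authors' deposited value table holds a ratio to the region's AD array, checked against the scanner files: at least 99.28% of values agree within 0.01 log2 units after 1 constant per array. Each log2 signal was taken relative to the array's 75th percentile, outlier spots were left out, spots of a probe averaged, and the brightest probe used for a gene. Of 41174 probes, 22951 matched a symbol (GRCm38.p6 table) and 18223 did not. limma 3.58.1 (R 4.3.3; tables with Python 3.11.15) fitted region plus diet to 12628 genes well above background on at least 3 arrays with at least 6 values. The fit was tested on simulated data with independent noise on each array. That test had no shared pools or slides, so it cannot show how sharing them affects the p-values. The 3 regions of a diet come from 1 pool of mice, and p-values measure only the spread between these 9 arrays. Promoter windows are RefSeq's (GRCm38.p6), found for 7 of 10 genes.

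The members and gene lists were chosen with earlier results of these data known. All members are named, with up to 4 genes per list (largest amygdala difference among called genes) and the 2 nearest profiles per member; not all of these are printed. The motifs were chosen with the levels known. Alternatives changed the background correction, scaling, source, filter, probe choice, slide and variance model, and left out pools, regions and arrays. The number of arrays limits the precision.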

Additional observations from a re-analysis of the deposited data

Results flagged for a closer look

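Cyp26b1 differed between regions in its response to diet, in 3 comparisons of regions with 1 array on each side, and the difference was not tested in any of them. For CR against AD, Cyp26b1 differed by 0.25 log2 units in hypothalamus and by -1.36 in prefrontal cortex, a gap of 1.61. For CR against RFR it differed by 0.19 in hypothalamus and by -0.98 in prefrontal cortex, a gap of 1.17. For the same diets it differed by 0.02 in amygdala, a gap of 1.0 to prefrontal cortex. All 3 gaps rest on the same prefrontal cortex CR array, which is on another slide than the AD and RFR arrays of that region, so diet and slide cannot be told apart in them.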

How the results depend on the processing

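No result changed direction under an alternative in the region tests. Of the 9 markers, 7 were called between amygdala and hypothalamus in the main fit. That count was 4 to 8 when pools, regions or arrays were left out, with 4 without the RFR pool, and 7 or 8 under the other settings. Between amygdala and prefrontal cortex 8 were called in the main fit. That count was 4 to 8 when pools, regions or arrays were left out, 5 without a filter on dim genes and 5 with the slide as a fixed term. The counts are not limited to the markers called in the main fit. Between hypothalamus and prefrontal cortex, 5 to 7 were called against 6. Over all genes, the calls for CR against AD went from 0 to 1774 without amygdala. Calls of all genes ranged from 1372 to 4677, from 879 to 3725 and from 3445 to 8087 in the 3 region comparisons, from 0 to 13 for RFR against AD and from 0 to 55 for CR against RFR. Fits that leave out a pool have 2 arrays per region. The authors' table could not give region differences and was not run for them, and normexp used median spot signals, which the scanner files give in place of the planned means. Diet, which pairs the regions by pool, is a term of the fit, so the region tests are paired by pool. The cause of these changes was not tested. With 1 array per region and diet, diet differences within a region have no error.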
